A study of Mus musculus with 52 samples.

Results

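Seminal vesicle secretory genes encode the abundant proteins that the accessory glands of the male tract add to semen. The genes described here are Svs2, Svs3a, Svs3b, Svs4, Svs5, Svs6 and Pate4, 7 genes chosen by gene symbol out of 38997 genes with a value in the tissues examined. All 7 had a value in prostate and in testes, and none of them had a row for eye, heart, liver, spleen or mouse embryonic fibroblasts (MEFs), 5 tissues in which genes below 3 reads in every replicate were removed by the study.

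RNA-seq was performed on male wild-type mice and on male mice homozygous for Tug1_tm1.1Vlcg (Tug1-/-), an allele in which a lacZ reporter replaces the body of the Tug1 long noncoding RNA gene while its promoter and first exon remain. Prostate was taken from 3 wild-type and 2 Tug1-/- mice, all of C57BL/6J/129S6 background with the further label N3-C57BL/6J and no Neo, Neo being the neomycin selection cassette. Which lobes were taken is not given in the sources used here. Testes came from 4 wild-type mice labelled C57BL/6J/129S6 (C57BL/6J, no Neo), from 4 Tug1-/- mice labelled C57BL/6J/129S6 (C57BL/6J, Neo, LacZ) and from 3 rescue mice with the same background label as the Tug1-/- mice. Rescue mice lacked endogenous Tug1, carried tg(Tug1), a Tug1 cDNA without the 5' region behind a doxycycline-responsive promoter, together with the ubiquitous activator CAGs-rtTA3, and were fed doxycycline. Eye, heart, liver, spleen and MEFs came from 3 wild-type and 3 Tug1-/- samples each, with the background label of the prostate. In testes the Neo label therefore cannot be told apart from the genotype, and beyond adult the ages of the mice sequenced for tissues are not given in the sources used here. MEFs were primary cells of early passage from male mid-gestation littermate embryos. The deposited tables hold 1 mean per group, in TPM (a level corrected for gene length and library size), and no value of a single sample. No spread, interval or test could be computed from the means, and every difference below is a description of 2 group means. The authors' own comparison statistics were not used. Whether a single sample carries a difference cannot be seen in the means.

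Tug1 itself, the deleted gene, had 27.8 TPM in wild-type prostate and 0.0553 TPM after deletion, 0.199% of the wild-type mean. In testes it had 40.1 TPM in wild type, 0.885 TPM in Tug1-/- and 1.60 TPM in rescue mice.

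In rodents these proteins are made under androgen control, mainly by the seminal vesicle and in part by the neighbouring prostate lobes. Svs2 and the Svs3 proteins are substrates of the transglutaminase Tgm4, a secretion of the anterior prostate, which links them into the copulatory plug. Svs4, Svs5 and Svs6 are small secreted proteins of the same gene family, and Pate4, also called Svs7, is an unrelated small cysteine-rich protein that binds sperm.

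The Svs genes lie together on chromosome 2 (mm10), in 98.5 kb between position 164235929, the lower bound of Svs2, and position 164334396, the upper bound of Svs5. Along the chromosome the order is Svs2, Svs3b, Svs4, Svs3a, Svs6 and Svs5, the first 3 on the minus strand and the others on the plus strand. Pate4 lies on chromosome 9, from 35607093 to 35611941 on the minus strand. All 7 are annotated as protein-coding, and the deposited bounds of each were the same in GENCODE vM21 on this build.

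Svs5 and Svs6 are neighbours that share nearly the same promoter, and they are shown because their mean levels in prostate were far apart and differed in opposite directions between the genotypes. Shown are the 250 bases before the RefSeq transcription start (GRCm38.p6), chr2:164332515-164332764 for Svs5 and chr2:164316501-164316750 for Svs6, both on the plus strand. Capitals mark bases that differ from the other gene or have no partner in it, in a global alignment.
Svs5: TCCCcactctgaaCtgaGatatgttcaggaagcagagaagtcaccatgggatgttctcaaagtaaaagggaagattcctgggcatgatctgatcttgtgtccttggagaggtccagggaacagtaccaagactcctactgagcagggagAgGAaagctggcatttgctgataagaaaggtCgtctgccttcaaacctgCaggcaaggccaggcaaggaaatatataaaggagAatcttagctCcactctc
Svs6: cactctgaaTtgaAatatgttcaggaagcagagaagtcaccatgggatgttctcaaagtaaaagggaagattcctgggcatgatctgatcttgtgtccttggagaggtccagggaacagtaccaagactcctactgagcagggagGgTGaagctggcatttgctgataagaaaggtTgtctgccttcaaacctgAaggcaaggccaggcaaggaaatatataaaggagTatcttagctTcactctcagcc
With the 50 bases after the start included, 285 of 296 aligned bases (96.3%) were identical. The longest transcripts of Svs5 and Svs6 had 68.2% identity over 519 aligned bases, with gap positions left out. By the same measure the unrelated Pate4 had 69.0% with Svs5 and 72.3% with Svs6, so this value is no sign of likeness. The transcripts of Svs5 and Svs6 shared no stretch as long as a read.

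The letters TATAAA, those of the TATA box, were searched on both strands and were found in all 6 promoters that matched a RefSeq entry, against 13.6% of all 32851 windows of the same length, 250 bases before to 50 after a start. The first base of the sense-strand match nearest the start lay at -28 in Svs3b, Svs4 and Svs5, at -29 in Svs3a and at -32 in Svs6. Svs4 had a further match on the sense strand at -182, and matches on the other strand at -152 and -61. The 6 promoters are not independent, since those of Svs3a and Svs3b, and of Svs5 and Svs6, are near-copies. In Svs2 the matches lay at -236 and -205, with none near the start. The RefSeq start lies inside the deposited gene bound by 125 bases in Svs2, by 152 in Svs4 and by 25 in Svs5. Svs5 and Svs6 carried the match within letters that both share.

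Prostate held by far the highest levels, and Svs2, Svs5 and Pate4 were about 3-fold higher in Tug1-/- prostate than in wild type. The other 4 genes did not follow them. Svs4 was higher by a smaller factor, and Svs3a, Svs3b and Svs6 were lower in the Tug1-/- mean.

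Svs2 had a mean of 10039 TPM in wild-type prostate and 30715.5 TPM in Tug1-/- prostate, a ratio of 3.06. Svs5 had 9363 and 27896 TPM, a ratio of 2.98. Pate4 had 2346 and 7743 TPM, a ratio of 3.30. Although Pate4 lies on another chromosome, its ratio was near those of both Svs genes. Ordered by level among all genes of the prostate, Svs2 was at place 11 in wild type and 3 in Tug1-/- mice, Svs5 at 12 and 4, and Pate4 at 43 and 11.

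Svs4 had 454 TPM for wild type and 674 TPM for Tug1-/- mice, a ratio of 1.49. Svs6 had 61.2 TPM (wild type) and 43.1 TPM (Tug1-/-), a ratio of 0.705. Svs3a had 17.6 and 12.1 TPM (ratio 0.689), and Svs3b had 15.6 and 10.8 TPM (ratio 0.689). These last 3 genes thus had almost the same ratio at levels far below those of Svs2 and Svs5.

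**Figure D1:**
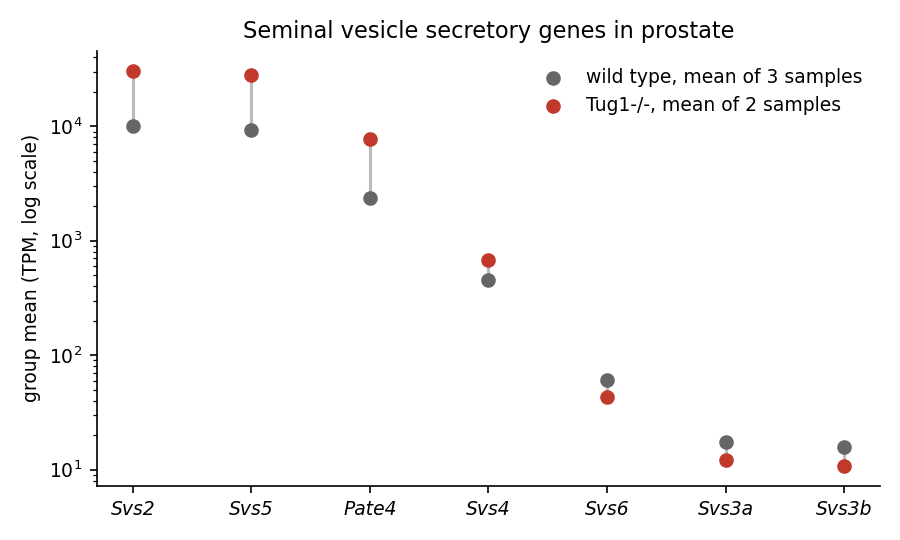
Group mean of each gene in prostate in TPM on a log axis, grey for wild type (3 samples) and red for Tug1-/- (2 samples), with a line joining both means of a gene. Svs2, Svs5 and Pate4 lie above 1000 TPM in both groups and are higher in Tug1-/- mice, while Svs6, Svs3a and Svs3b lie below 100 TPM and are lower.

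On the scale of log2((Tug1-/- + 1)/(wild type + 1)), used below for all genes, the differences were 1.61 for Svs2, 1.57 for Svs5, 1.72 for Pate4, 0.57 for Svs4, -0.49 for Svs6, -0.50 for Svs3a and -0.50 for Svs3b. Past a 2-fold limit on this scale were 3 of the 7 genes, all higher, where 1.24% of 15547 genes with at least 1 TPM in either group were higher and 0.502% were lower. None of the 7 was lower past that limit. The median over the 7 genes was 0.57, against 0.03 over all 15547 genes. That median is the value of Svs4 alone, since the other 6 genes fall in 2 sets of 3 on either side of it.

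**Figure D2:**
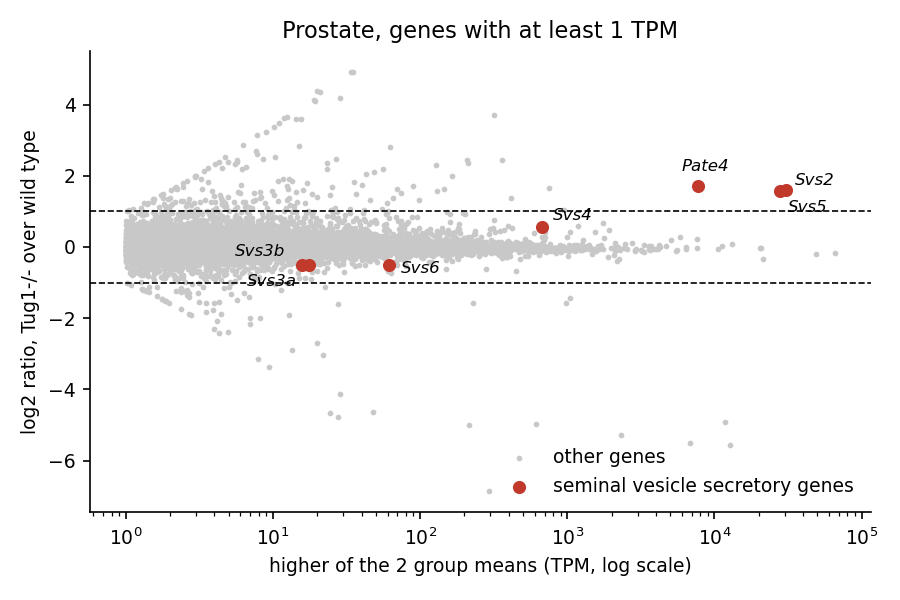
Log2 ratio of Tug1-/- over wild-type prostate against the higher of the group means (TPM, log axis) for 15547 genes with at least 1 TPM, the 7 genes in red and dashed lines at 2-fold. Svs2, Svs5 and Pate4 lie at the far right above the upper line, where few other genes lie away from 0.

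Among the more abundant genes, the share higher past 2-fold was 0.945% of 8363 genes with at least 10 TPM in either prostate group and 1.1% of 1275 genes with at least 100 TPM, where 3 of the 14 higher genes were Svs2, Svs5 and Pate4. Of 108 genes with at least 1000 TPM in either prostate group, 3 were higher past 2-fold in Tug1-/- mice (2.78%, above the share over all genes), and these were the same 3 genes. This last minimum was chosen after the values were seen. Lower past 2-fold were 5 of the 108, namely mt-Rnr2, the large mitochondrial ribosomal RNA, with CT010467.1, Gm23935, Gm24187 and Mir6236, named here after their values were seen. Their sum was 34804 TPM for wild-type and 1249 TPM for Tug1-/- prostate. The means of these RNAs differed between the groups, and whether a single sample carries that difference cannot be seen. Their part in the levels of the secretory genes was not tested.

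Together the 7 genes made 2.23% of all TPM in wild-type and 6.71% in Tug1-/- prostate, a ratio of summed levels of 3.01. Svs2, Svs5 and Pate4 supplied 97.5% of the sum in wild type and 98.9% in Tug1-/- mice. Svs3a, Svs3b and Svs6 together held 94.4 TPM (wild type) and 66.0 TPM (Tug1-/-). Leaving out any 1 gene kept the ratio of sums between 2.97 and 3.04.

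Levels relative to one another show the same division within the family. Svs2 was 1.07 times Svs5 in wild type and 1.10 times in Tug1-/- mice, and it was 4.28 and 3.97 times Pate4. Svs5, by contrast, was 153 times Svs6 in wild type and 647 times in Tug1-/- mice, although the promoters printed above are nearly the same. Svs5 was 20.6 and 41.4 times Svs4, and Svs4 was 7.42 and 15.6 times Svs6. Such ratios within a group do not depend on the total of the other genes.

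Svs3a and Svs3b are near-identical copies, and their values are less certain as single genes. Their promoters were 97.7% identical and their longest transcripts 93.3% identical, and 26.4% of the read-length windows of Svs3a also occurred in Svs3b. A read from such a window does not map uniquely on its own, and only uniquely mapped reads were counted. The mean of Svs3a was 1.12 times that of Svs3b in wild type and in Tug1-/- prostate. No window of that length of Svs2, Svs4, Svs5, Svs6 or Pate4 occurred in any transcript of another gene of GENCODE vM21.

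The reads behind these means were many for all 7 genes. The authors' mean normalised count over the 5 prostate libraries was 476244 for Svs2, 141963 for Svs5, 63255 for Pate4 and 5294 for Svs4. It was 384 for Svs6, 245 for Svs3a and 227 for Svs3b. The 7 genes took 1.67% of all normalised counts of the prostate.

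The higher genes do not sit together on chromosome 2. Svs2 and Svs5, both higher, are the outermost genes of the cluster, and the 4 between them are those with ratios of 0.689 to 1.49. Within 500 kb of the cluster, 31 other genes had at least 1 TPM in either prostate group, 1 higher and 1 lower past 2-fold, with a median log2 ratio of -0.02. The higher gene was Slpi, a secreted inhibitor of leukocyte proteases, whose lower bound lies 118 kb from that of Svs2, beyond Svs5, and which had 5.94 TPM (wild type) and 18.4 TPM (Tug1-/-). The lower was Wfdc12, with 4.91 and 0.133 TPM. Both were named after their values were seen. Around Pate4, 11 other genes passed 1 TPM and 0 were past 2-fold in either direction, with a median of 0.06.

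**Figure D3:**
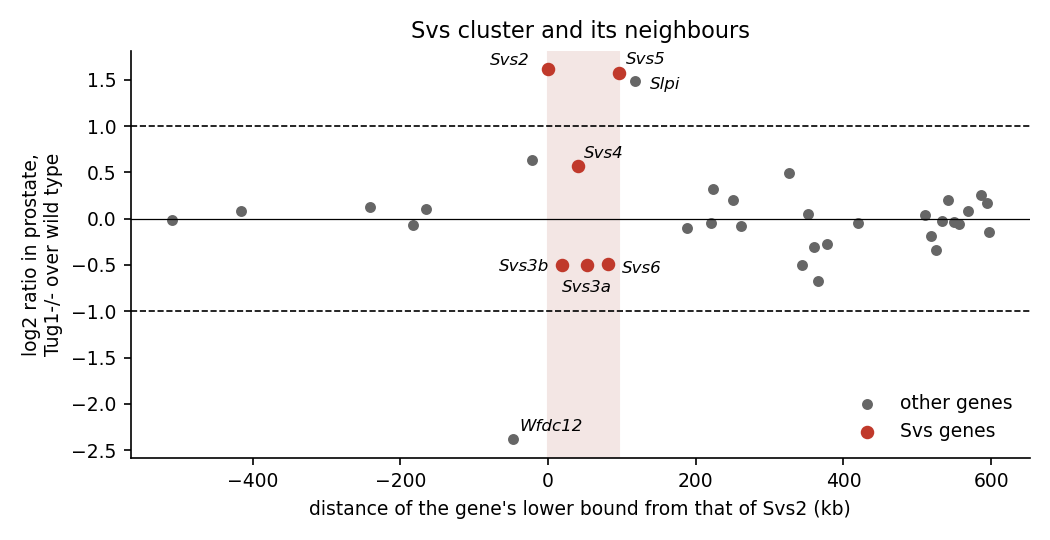
Log2 ratio of Tug1-/- over wild-type prostate for genes with at least 1 TPM, by the distance of the gene's lower bound from that of Svs2 in kb, with Svs genes in red, the Svs cluster shaded and dashed lines at 2-fold. Svs2 and Svs5 at both edges of the shaded cluster and Slpi beside it lie above the upper line, and Wfdc12 lies below the lower one.

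Other secretory genes of the seminal vesicle mostly had a lower mean in Tug1-/- prostate. Of 10 symbols listed, 7 had a row in prostate and 6 reached 1 TPM, with 0 past 2-fold in either direction, 1 above and 5 below 0, and a median log2 ratio of -0.48. Svs1 had 20.8 TPM (wild type) and 14.6 TPM (Tug1-/-), Sva, the seminal vesicle autoantigen, 18.8 and 13.3 TPM, and Ceacam10 13.3 and 13.5 TPM. The abundant 9530002B09Rik had 20516 and 19916 TPM, far above the other genes of this list and near the prostate gene Tgm4 (20666 and 20140 TPM). It is among the genes left out where TPM was rescaled without the seminal vesicle genes. The ratios of Svs1 (0.700) and Sva (0.710) were thus close to those of Svs3a, Svs3b and Svs6, and unlike those of Svs2, Svs5 and Pate4. In bulk tissue, fewer cells of a type in the piece taken and less RNA per cell cannot be told apart, and the lobes taken are not given.

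The markers of prostate were present in both groups. Probasin (Pbsn), the classical secretory protein of rodent prostate, had 65995 TPM (wild type) and 58591 TPM (Tug1-/-), Tgm4 20666 and 20140 TPM, 9530053A07Rik 49042 and 43115 TPM, and Mmp7, a secreted matrix protease, 6608 and 7658 TPM. Of 9 prostate secretory genes 8 reached 1 TPM, with 0 past 2-fold, 5 above and 3 below 0, and a median log2 ratio of 0.06. Svs2 and Svs5 thus had levels below that of Tgm4 in wild type and above it in Tug1-/- mice.

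The means of the macrophage, adipocyte and immunoglobulin genes listed here were higher in Tug1-/- prostate. Of 8 macrophage genes, 8 were above 0 with a median of 0.61 and 0 past 2-fold, and their summed level was 272 TPM (wild type) and 418 TPM (Tug1-/-). Among 7 adipocyte genes, listed after the values were seen, 6 were higher past 2-fold, with sums of 143 and 677 TPM, Cfd, the secreted complement factor D, having 66.2 and 361 TPM. Of 4 genes listed in the same way, immunoglobulin constant genes and Jchain, 4 were higher past 2-fold, with sums of 66.1 and 353 TPM. Over all 15547 genes, 1.24% were higher past that limit. Both of these lists were picked from these values, so their counts were largely set by the choice. Other genes of these cell types were not counted. No gene of these 3 lists was at 0 in both groups, and their part in the levels of the secretory genes was not tested. Smooth muscle genes had sums of 5436 and 5655 TPM with a median of 0.08, and epithelial keratin and adhesion genes 3858 and 3676 TPM with a median of -0.08. Urothelium genes, of which 3 of 5 reached 1 TPM, had a median of -0.04, which was 0.02 with TPM rescaled without the seminal vesicle genes. Of 7 epididymis and vas deferens genes 2 had a row, Crisp1 with 12.7 and 11.0 TPM and Akr1b7 with 4.51 and 9.32 TPM. On the log2 scale with the pseudocount none of these last 4 lists had a gene past 2-fold, and without it Akr1b7 would be, at a ratio of 2.06.

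**Figure D4:**
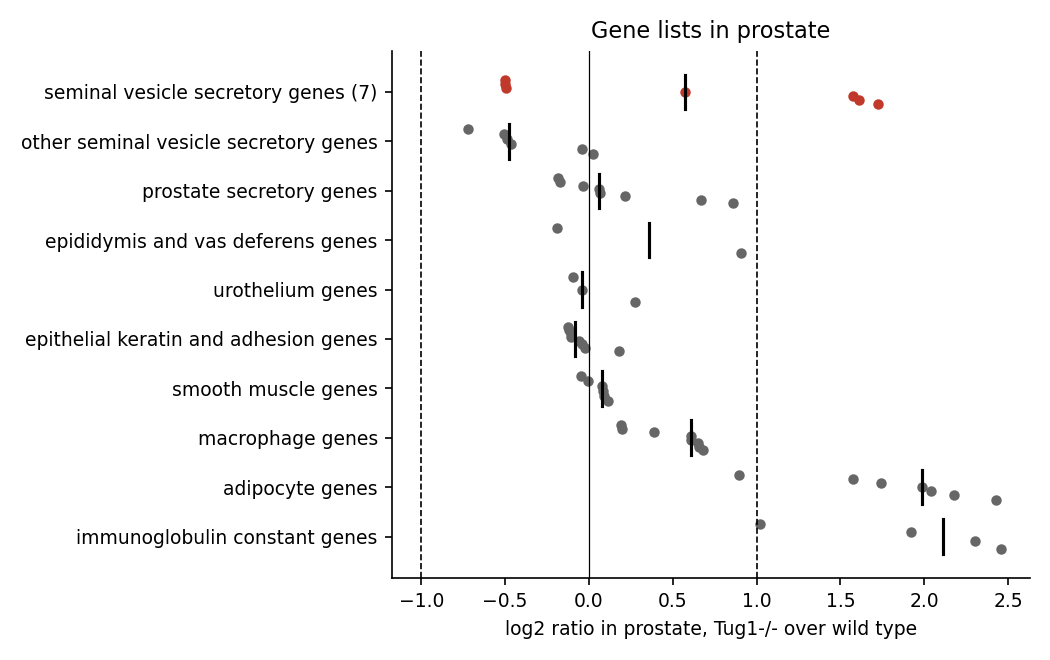
Log2 ratio of Tug1-/- over wild-type prostate for each gene of a list with at least 1 TPM (points), with the list median as a black bar and dashed lines at 2-fold. The 7 secretory genes (red) split into a set of 3 near -0.5, Svs4, and a set of 3 above 1.5, whereas the other seminal vesicle genes lie at or below 0.03.

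Testes held very low levels of the same genes. Their summed level was 10.9 TPM in wild type, 15.5 TPM in Tug1-/- and 16.9 TPM in rescue mice, at most 0.00169% of all TPM. Only Svs4, Svs5 and Svs6 reached 1 TPM in a group.

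Svs5 was the highest of them, with 7.88 TPM in wild type, 11.3 TPM in Tug1-/- and 12.5 TPM in rescue testes. Svs4 had 1.54, 1.64 and 1.25 TPM, and Svs6 0.767, 1.81 and 2.39 TPM. Svs6 thus had the larger relative difference, 2.36 times the wild-type mean in Tug1-/- mice, at a level near 1 TPM, and without the pseudocount of 1 TPM it would be past 2-fold.

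The other 4 genes stayed below 0.5 TPM in all 3 groups. Svs2 had 0.112, 0.179 and 0.110 TPM in wild-type, Tug1-/- and rescue testes, Svs3a 0.0295, 0.0764 and 0.0885 TPM, Svs3b 0.168, 0.364 and 0.460 TPM and Pate4 0.418, 0.125 and 0.112 TPM. Pate4 was the one gene whose mean was highest in wild type. Its direction was opposite to that in prostate, as were those of Svs3a, Svs3b and Svs6.

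Past 2-fold on the log2 scale above were 0 of the 3 genes with at least 1 TPM in each comparison of testes. Without the pseudocount Svs6 would be past it, at ratios of 2.36 for Tug1-/- and 3.12 for rescue over wild type. The background was 0.411% higher and 1.11% lower of 22378 genes for Tug1-/- over wild type, 0.113% higher and 0.766% lower of 22180 genes for rescue over Tug1-/-, and 0.277% higher and 1.84% lower of 22393 genes for rescue over wild type. The differences of Tug1-/- over wild type were 0.47 for Svs5, 0.67 for Svs6 and 0.05 for Svs4. Those of rescue over Tug1-/- were 0.13, 0.27 and -0.23, and those of rescue over wild type 0.60, 0.94 and -0.18. Any pair of these comparisons shares the samples of a group. In rescue testes the means of Svs5 and Svs6 lay farther from wild type than those of Tug1-/- testes.

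**Figure D5:**
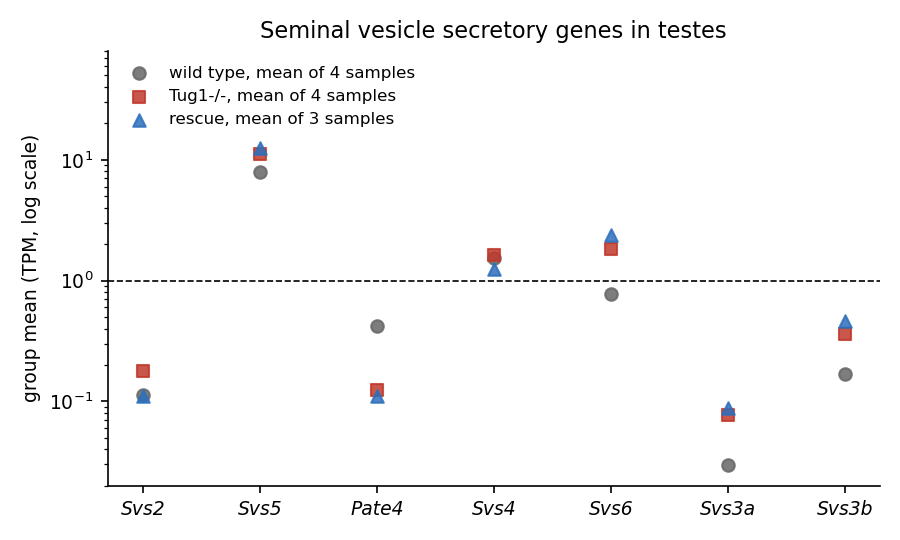
Group mean of each gene in testes in TPM on a log axis, with grey circles for wild type (4 samples), red squares for Tug1-/- (4 samples) and blue triangles for rescue (3 samples), and a dashed line at 1 TPM. Svs5 lies near 10 TPM in all groups, and Svs2, Pate4, Svs3a and Svs3b lie below 0.5 TPM.

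The levels ordered prostate far above testes for each of the 7 genes, and the means of the other 5 tissues are not listed. Among the 5 genes most like them over all 15 group means, by the Pearson correlation of log2(TPM + 1) with the mean of the 7 and with unlisted genes set to 0, were Gprc6a (0.9996), Atp12a (0.998), A630095E13Rik (0.997) and Ren1 (0.997), of 8356 genes with at least 10 TPM in either prostate group. The points share libraries, and such values rest on prostate standing apart from the rest. In prostate the log2 ratios of these 4 genes were 0.11, -0.13, 0.93 and -0.35, each below those of Svs2, Svs5 and Pate4.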

How the data were processed

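RNA was sequenced from polyA RNA libraries (TruSeq v2) of 46 samples in 15 groups, out of 52 listed, and 6 F1 hybrid testes were not analysed here. The authors aligned reads to mm10 with STAR (base calls by CASAVA 1.8.2 per the labels), took uniquely mapping reads into gene counts by featureCounts and deposited group means in TPM. Their baseMean column, a deposited signal, is the mean read count after size factor scaling over both genotypes. Whether counting used strand is not given in the sources used here. Fold changes, statistics and p-values from the authors' own DESeq2 comparisons are in the same tables and were not used, and brain rows, from libraries outside the series, were left out. The summed baseMean ran from 38666994 in MEFs to 48341823 in eye, 0 columns held values of single samples, and no test was run. The sample descriptions name the testes table for the other tissues and the reverse, so tables were assigned by the Tissue column of one and by the name and rescue columns of the other, which has no Tissue column. The depth of single libraries is unknown.

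Ratios of mean TPM were computed with a pseudocount of 1 TPM over genes with at least 1 TPM in either group, and 2-fold was the limit for a count. The members and gene lists were chosen with earlier results of these data known. Named genes were the members, Tug1, up to 4 genes per list by level and the 5 genes most alike in pattern. One gene list and 1 gene of the last group are not reported here. Genes outside this rule are named as chosen after their values were seen. Promoters came from RefSeq (GRCm38.p6; 6 of 7 genes matched) and transcripts from GENCODE vM21. The counting step was tested on simulated data. Python 3.11.15, numpy 2.4.6, pandas 2.3.3, biopython 1.88 and matplotlib 3.10.9 were used. Alternatives were other pseudocounts, minimum levels and fold limits, rescaling without seminal vesicle genes, centring, and leaving out genes.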

Additional observations from a re-analysis of the deposited data

How the results depend on the processing

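The count of 3 genes higher past 2-fold in prostate was the same with a pseudocount of 0.1 TPM or none, with TPM rescaled without the seminal vesicle genes, after centring on the median, with a fold limit of 1.5, with no minimum level, with minimums of 10 and 1000 TPM (the last chosen after seeing the data) and without Svs3a and Svs3b. At a fold limit of 4 it was 0. All 3 genes had at least 2346 TPM in both prostate groups, and Svs3a and Svs3b were not among them. The pseudocounts, the minimums and leaving out Svs3a and Svs3b therefore could not change the count. Under both pseudocount settings, rescaling and centring, the largest move in the log2 ratio of any of the 7 genes in prostate was 0.0682. In testes the median log2 ratio of Tug1-/- over wild type for the 7 genes was 0.08 with a pseudocount of 1 TPM and 0.45 with 0.1 TPM, as 4 of them lie below 1 TPM. A value was called moved at a change of 0.1 or more, since no spread between samples could be had from the group means. No paired analysis was possible because the tables hold group means only, and for the same reason no sample could be left out in turn.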
